A study of Homo sapiens with 6 samples.

Results

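PD-L1, its sister ligand PD-L2 and the genes that set how long PD-L1 protein survives were followed through RNA of the human glioblastoma cell line U251. Symbols of 7 genes chosen by role were matched to Ensembl IDs, and all 7 were found among the 57773 genes of the count table: CD274 (PD-L1), PDCD1LG2 (PD-L2), CMTM6, CMTM4, HIP1R, STUB1 and SPOP. The choice was made with earlier results of these data known. All 7 passed the filter on low counts that left 15818 genes for testing. Counts of 3 dishes of U251 cells stably transduced with lentivirus carrying PD-L1 (PD-L1 dishes) were set against those of 3 dishes of U251 cells stably transduced with the vector control (Vector dishes). Every dish held cells between passages 5 and 10 in DMEM with 10% serum, and RNA was taken 12 h after passage. The labels describe 1 transduced line per group and do not describe the dishes as separate transductions, so p-values measure only the spread between dishes. The promoter of the construct is not given in the sources used here, and a CD274 count in PD-L1 dishes can come from the construct or from the cells' own gene, which the table adds up as 1 row.

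PD-L1 on a tumour cell binds PD-1 on T cells and dampens their activity. PD-L2 is the other ligand of PD-1, and both genes lie side by side in chromosome band 9p24.1, where interferon acting through JAK kinases, STAT factors and IRF1 raises their transcription. PD-L1 protein is kept at the cell surface by CMTM6 and CMTM4, which bind it and divert it from lysosomes. HIP1R carries it to lysosomes, and the ubiquitin ligases STUB1 and SPOP mark it for destruction. RNA counts measure none of these protein steps.

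The stretch in front of the annotated start of CD274 is shown because the labels describe Vector cells without a PD-L1 construct. Their CD274 reads were taken as those of the cells' own gene, and the origin of these reads was not tested. The stretch covers the 250 bases before the start in the RefSeq annotation of GRCh38.p14, chr9:5450292-5450541, plus strand, a build other than that of the counts.
CD274 promoter: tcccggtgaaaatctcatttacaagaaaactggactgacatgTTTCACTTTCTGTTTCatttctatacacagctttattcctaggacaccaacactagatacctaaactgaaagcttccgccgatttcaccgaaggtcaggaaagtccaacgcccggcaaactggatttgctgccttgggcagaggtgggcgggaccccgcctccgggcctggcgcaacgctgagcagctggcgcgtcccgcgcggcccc
The capitals mark 2 overlapping matches, on the reverse strand, of an IRF-type element, searched as GAAA, any 2 bases and GAAA again. They run from 208 to 199 and from 202 to 193 bases before the start. Both strands were searched, and 3.02% of 35116 promoters of that length (1061) held at least 1 match. The GAS-type letters TTCNNNGAA matched once in CD274 and in 6.57% of promoters (2306). Entries existed for 5 of the 7 genes: HIP1R held 1 match of the IRF-type element, and CMTM6, CMTM4 and SPOP held 0. A match of letters does not show a bound site.

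Sequencing depth was between 15678989 and 22270509 counts per dish, at which 3 counts correspond to 0.138 to 0.185 CPM. CPM are counts scaled to a common library size, here with TMM (trimmed mean of M values) factors. PD-L1 dish 3 stood apart from its group: against its fellow dishes its gene counts gave a chi-square per degree of freedom of 14.5 and 13.6, while PD-L1 dishes 1 and 2 gave 2.84 and the pairs of Vector dishes 4.88 to 9.15. Summed markers of glioma and astrocytes were 1012 to 1138 CPM in PD-L1 dishes and 1387 to 1525 CPM in Vector dishes. Of these, 6 of 9 tested markers were lower at an edgeR false discovery rate (FDR) under 0.05, where 7.20% of all tested genes were. CD44 and VIM were 208 and 241 CPM in PD-L1 dishes and 417 and 391 CPM in Vector dishes. GLUL went the other way, with 504 and 465 CPM in PD-L1 and Vector dishes (edgeR FDR 0.350). Sums were 1.85 to 2.78 against 3.47 to 4.05 CPM for 9 myeloid markers, 1.42 to 2.10 against 2.67 to 2.91 CPM for 6 T cell markers (CD2 at 0 in every dish) and 2.96 to 3.80 against 3.13 to 4.09 CPM for 4 endothelial markers. In each of these lists 1 of 2 tested markers was called lower by edgeR: AIF1 (0.0856 against 0.723 CPM), CD4 (0.214 against 1.35) and KDR (0.725 against 1.61). DESeq2 called 0 in each of them. AIF1 had 4, 1 and 0 counts and CD4 7, 4 and 1 counts in PD-L1 dishes 1, 2 and 3. Both passed the filter on low counts only through the Vector dishes, so only a lower call was open to them. The other tested markers, CSF1R (0.760 against 1.60 CPM), CD8A (1.07 against 0.981) and CDH5 (2.11 against 1.30), were not called. The part of these differences in the results below was not tested. In bulk RNA, fewer cells that express a gene and less of its RNA per cell cannot be told apart.

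CD274 (ENSG00000120217) stood at 1309, 1356 and 1234 CPM in PD-L1 dishes 1, 2 and 3. In the Vector dishes it stood at 1.56, 3.47 and 2.21 CPM, from 34, 71 and 41 counts. Their exact Poisson 95% intervals, which cover counting error only, spanned 1.08 to 2.19, 2.71 to 4.38 and 1.58 to 2.99 CPM. All 3 PD-L1 dishes lay far above all Vector dishes, and every Vector dish lay above the level of 3 counts. The fitted log2 fold change was 9.07 ± 0.18 (SE, 3 dishes a group; 95% interval 8.68 to 9.47), or 539-fold (410.2 to 707), with an edgeR quasi-likelihood FDR of 1.45e-12. DESeq2 gave a wider interval, with 9.07 ± 0.32 (SE, 95% interval 8.44 to 9.70), or 348-fold to 830-fold. An exact two-sided permutation test over the dishes gave p = 0.1, the smallest that 3 against 3 allows. CD274 was the 54th, 50th and 77th gene by raw count in PD-L1 dishes 1, 2 and 3 and the 13420th, 11993th and 12798th in the Vector dishes. It took 0.121% to 0.140% of all counts in the PD-L1 dishes and 69.9% to 71.6% of the counts of the 7 genes together. In the Vector dishes it took 0.314% to 0.697% of the counts of the 7 genes.

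The PD-L1 dishes were closer to each other in CD274, relative to their mean, than the Vector dishes were. The coefficient of variation was 4.73% in the PD-L1 dishes (mean 1299.5 ± 61.4 CPM, SD, n = 3), where counting error alone gives 0.646%. It was 40.2% in the Vector dishes (2.41 ± 0.970 CPM, SD, n = 3), where counting error alone gives 14.3%. Vector dish 2, the highest, had an interval that did not reach that of Vector dish 1.

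PDCD1LG2 (ENSG00000197646), the gene next to CD274 that encodes PD-L2, was near the bottom of the measured range. It had 8, 12 and 11 counts in the PD-L1 dishes and 10, 23 and 14 counts in the Vector dishes. These were 0.390, 0.739 and 0.589 CPM against 0.460, 1.12 and 0.754 CPM. The groups overlapped, and Vector dish 2 was again the highest Vector dish. The log2 fold change was -0.46 ± 0.40 (SE, 3 dishes a group; 95% interval -1.33 to 0.41, or 0.399-fold to 1.33-fold) with an edgeR FDR of 0.529. It was -0.74 without Vector dish 1 and -0.09 without Vector dish 2, with the other left-out dishes in between. A change was not detectable at this depth, and the interval leaves room for a drop below 0.5-fold. Per Vector dish, CD274 had 3.40, 3.09 and 2.93 reads for each PDCD1LG2 read, where counting error alone is 25.3% for PDCD1LG2 and 14.3% for CD274.

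**Figure D1:**
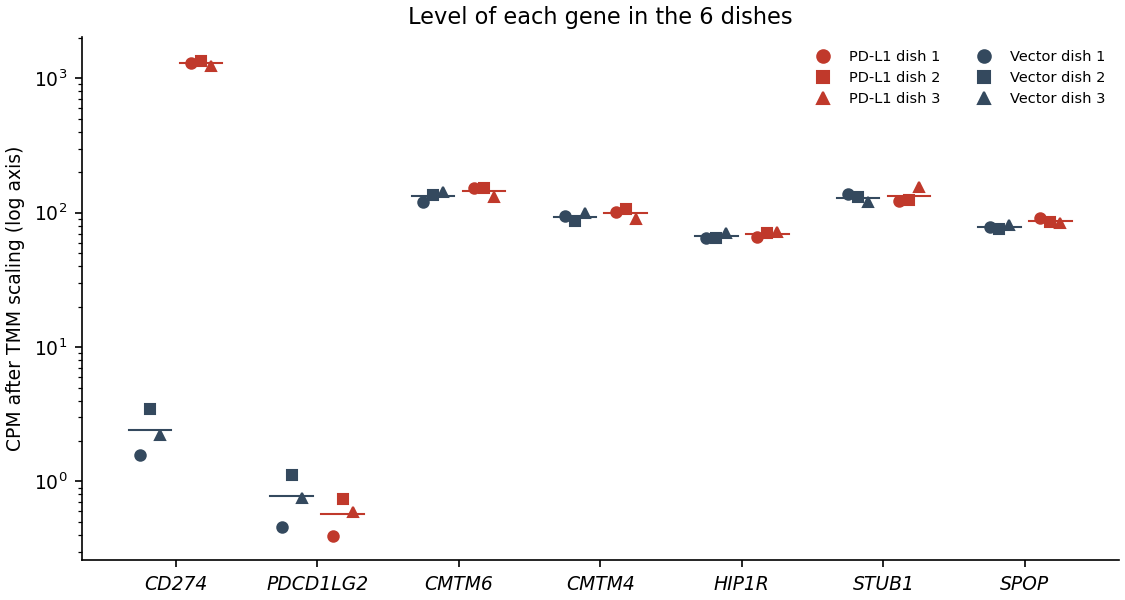
CPM of each of the 7 genes in each of the 6 dishes on a log10 axis, with PD-L1 and Vector dishes as separate point colours and a short line for each group mean. CD274 moves from 1.56 to 3.47 CPM in Vector dishes to 1234 to 1356 CPM in PD-L1 dishes. The points of CMTM6, CMTM4, HIP1R, STUB1 and SPOP lie close together in both groups, and those of PDCD1LG2 spread from 0.390 to 1.12 CPM.

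Of the 7 genes, 1 (CD274) was called higher and 0 were called lower at an edgeR FDR under 0.05, where 8.75% of all tested genes were called, 1.55% higher and 7.20% lower. Of the 6 others, 0 were called, 0 had an unadjusted p under 0.05, and 0 were called by DESeq2 (which gave PDCD1LG2 no adjusted p), limma-voom or limma on the deposited normalized counts, tools that called 9.90%, 8.64% and 8.36% of the genes they tested. Their median log2 fold change was 0.07, against 0.02 over all tested genes. Dishes of the 2 groups did not overlap for 1 of the 6, SPOP, where 27.6% of tested genes did not overlap.

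CMTM6 (ENSG00000091317), the partner that protects PD-L1 at the cell surface and in recycling endosomes, stood at 154, 152 and 130 CPM in PD-L1 dishes 1, 2 and 3 and at 121, 135 and 142 CPM in the Vector dishes. PD-L1 dishes 1 and 2 lay above all Vector dishes and PD-L1 dish 3 lay among them. The log2 fold change was 0.13 ± 0.09 (SE, 3 dishes a group; 95% interval -0.06 to 0.32), with an edgeR FDR of 0.399. Without PD-L1 dish 3 it was 0.20 (interval 0.05 to 0.35) with an edgeR FDR of 0.0448, in a fit that called 21.6% of tested genes (7.81% higher). With an offset for the GC content and length of each gene it was 0.06 with an edgeR FDR of 0.536. CMTM6 shares 324 exon bases (7.34%) with CMTM7 on the other strand, and the kit does not keep strand.

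CMTM4 (ENSG00000183723), the close relative that also binds PD-L1, stood at 101, 106 and 89.9 CPM in the PD-L1 dishes and at 94.8, 86.4 and 99.6 CPM in the Vector dishes. PD-L1 dish 3 was again the lowest of its group, and the groups overlapped. The log2 fold change was 0.08 ± 0.08 (SE, 3 dishes a group; 95% interval -0.10 to 0.26; edgeR FDR 0.595). Reads per kb of CMTM6 over those of CMTM4 were 1.29 ± 0.0418 in PD-L1 dishes and 1.26 ± 0.127 in Vector dishes (SD, n = 3; exact two-sided permutation p = 0.7).

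HIP1R (ENSG00000130787), the adaptor that takes PD-L1 to lysosomes, stood at 66.1, 70.4 and 72.3 CPM in the PD-L1 dishes and at 64.9, 64.8 and 71.0 CPM in the Vector dishes. The groups overlapped through Vector dish 3. The log2 fold change was 0.06 ± 0.08 (SE, 3 dishes a group; 95% interval -0.11 to 0.22; edgeR FDR 0.701). With the offset for GC content and length it was 0.24 (interval 0.10 to 0.37) with an edgeR FDR of 0.0209, where that fit called 14.6% of tested genes (6.02% higher). The call ended when a replicate block was added to the offset (edgeR FDR 0.0557).

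STUB1 (ENSG00000103266), a ubiquitin ligase that works with HSP70 and HSP90 chaperones and marks PD-L1 for destruction, stood at 123, 124 and 154 CPM in the PD-L1 dishes. The Vector dishes stood at 137, 131 and 119.9 CPM. PD-L1 dish 3 was the highest of the 6 dishes, and PD-L1 dishes 1 and 2 lay among the Vector dishes. STUB1 had a log2 fold change of 0.05 ± 0.09 (SE, 3 dishes a group; 95% interval -0.15 to 0.25; edgeR FDR 0.796). It was -0.07 without PD-L1 dish 3 (edgeR FDR 0.533) and -0.01 without Vector dish 3. With the offset for GC content and length it was 0.16 (interval 0.05 to 0.28; edgeR FDR 0.0472). That call ended when a replicate block was added to the offset (edgeR FDR 0.136). STUB1 shares 983 exon bases (42.4%) with JMJD8 on the other strand, so reads of the pair cannot be told apart there, and JMJD8 had a log2 fold change of -0.12 (edgeR FDR 0.500).

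SPOP (ENSG00000121067), the substrate adaptor of a CUL3 ubiquitin ligase that marks PD-L1, stood at 91.4, 84.6 and 83.7 CPM in the PD-L1 dishes and at 78.0, 75.9 and 81.2 CPM in the Vector dishes. Every PD-L1 dish lay above every Vector dish, a pattern that 12.1% of tested genes shared. The log2 fold change was 0.14 ± 0.07 (SE, 3 dishes a group; 95% interval -0.02 to 0.30) with an edgeR FDR of 0.261, and the exact two-sided permutation p was 0.1. SPOP passed the threshold in 0 of 19 alternative fits, whose log2 fold changes were 0.10 to 0.20 and whose lowest FDR was 0.0538.

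**Figure D2:**
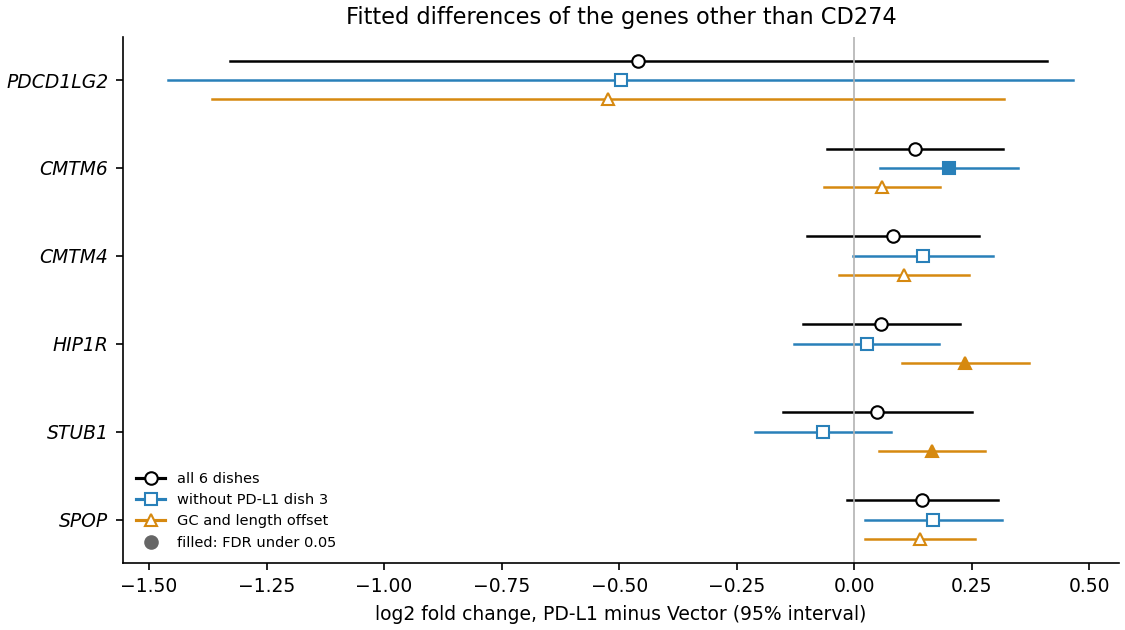
Log2 fold change, PD-L1 minus Vector, of the 6 genes other than CD274 with its 95% interval in the fit of all 6 dishes, without PD-L1 dish 3, and with a GC and length offset; filled points have an FDR under 0.05. Intervals of CMTM6, CMTM4, HIP1R, STUB1 and SPOP lie between -0.21 and 0.37, and that of PDCD1LG2 is the widest, -1.46 to 0.47.

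The regulators differed widely in GC content, and counts of low-GC and high-GC genes differed between dishes. CMTM6 has 39.4% GC, above 12.2% of tested genes, while HIP1R has 62.7% (above 89.1%) and STUB1 65.8% (above 94.5%). Over the 1544 tested genes of lowest GC content (at most 38.7%), the median log2 deviation from the Vector mean was 0.17, 0.14 and 0.03 in PD-L1 dishes 1, 2 and 3. Over the 1544 genes of highest GC content (at least 62.0%) it was -0.25, -0.18 and 0.04. PD-L1 dishes 1 and 2 thus ran high in low-GC genes and low in high-GC genes, and PD-L1 dish 3 did neither. In Vector dishes 1, 2 and 3 the low-GC medians were -0.09, 0.06 and 0.03 and the high-GC medians 0.09, -0.07 and -0.03. The medians used the mean of Vector log2 CPM, while the single-gene values that follow are log2 of CPM over the mean Vector CPM. CMTM6 stood at 0.21, 0.19 and -0.03 in PD-L1 dishes 1, 2 and 3 and STUB1 at -0.07, -0.06 and 0.25. HIP1R stood at -0.02, 0.07 and 0.11, above the medians of the high-GC genes in all 3 dishes. When PD-L1 dish 3 was left out and the offset applied, an alternative added after the data were seen, 4 of the 7 genes were called, where 22.1% of tested genes were (10.3% higher): CD274, CMTM4 (0.16, edgeR FDR 0.0436), HIP1R (0.25, FDR 0.00881) and STUB1 (0.15, FDR 0.0472).

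**Figure D3:**
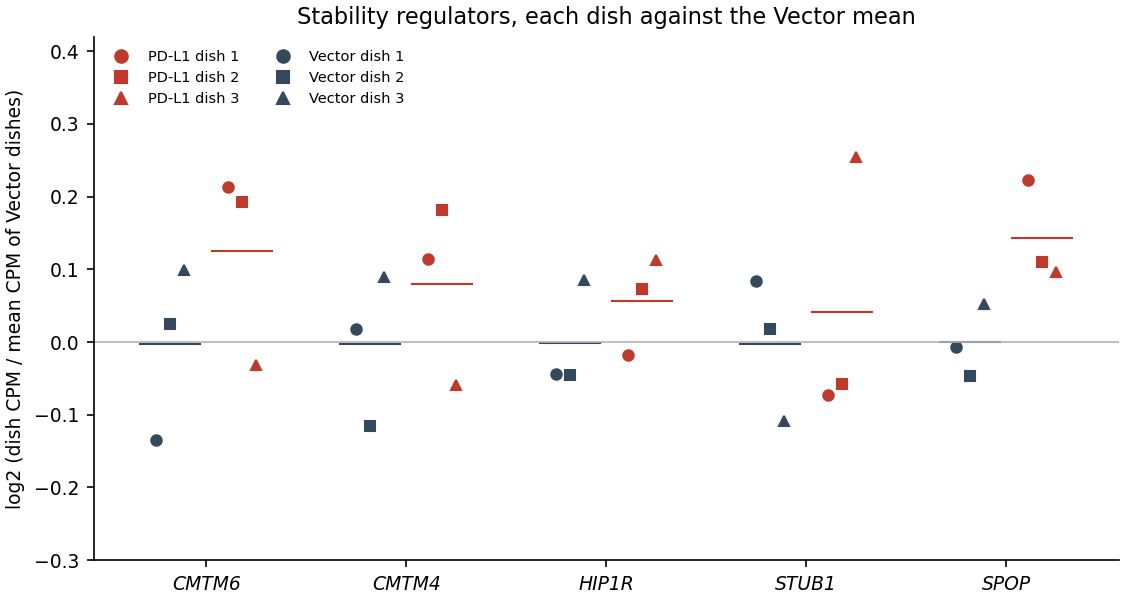
Log2 of each dish's CPM over the Vector mean for the 5 stability regulators, 1 point per dish, with a line at the mean of each group's points. PD-L1 dish 3 is the lowest PD-L1 dish for CMTM6 (-0.03) and CMTM4 (-0.06) and the highest for STUB1 (0.25), and SPOP is the gene whose PD-L1 dishes all lie above its Vector dishes.

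Levels of different genes were compared as CPM per kb of transcript. In Vector dishes the order was STUB1 (82.9 ± 5.59, SD, n = 3), CMTM6 (34.4 ± 2.80), CMTM4 (27.4 ± 1.97), SPOP (26.2 ± 0.906), HIP1R (14.7 ± 0.775), CD274 (0.663 ± 0.266) and PDCD1LG2 (0.330 ± 0.141). CMTM4 and SPOP were not separated by their spread, nor were CD274 and PDCD1LG2, although within each Vector dish CD274 was 1.90 to 2.21 times PDCD1LG2 per kb. In PD-L1 dishes CD274 came first with 357 ± 16.9 CPM per kb of its annotated transcript. STUB1 followed with 85.8 ± 11.3 and CMTM6 with 37.6 ± 3.43, and CMTM4 and SPOP stood at 29.04 ± 2.45 and 29.01 ± 1.42. The transcript length of the construct is not given, and CD274 in PD-L1 dishes was 1489 ± 70.4 CPM per coding kb. By coding length in Vector dishes CMTM6 (240.4 CPM per coding kb) came before STUB1 (186), so the order of those genes depends on the length used.

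CD274 RNA was scarce beside that of its partner CMTM6 in Vector dishes and exceeded it in PD-L1 dishes. The ratio of CD274 to CMTM6, per kb of transcript, was 0.0137, 0.0272 and 0.0165 in the Vector dishes and 9.02, 9.47 and 10.1 in the PD-L1 dishes. The means were 0.0191 ± 0.00715 and 9.52 ± 0.526 (SD, n = 3; exact two-sided permutation p = 0.1). By coding length of both genes they were 0.0114 and 5.68. The transcript length of the construct is not given, so these ratios in PD-L1 dishes hold only for the lengths used. With coding length for CD274 alone, it stood at 1489 CPM per kb in PD-L1 dishes, beside 37.6 for CMTM6 per kb of transcript. The ratio of CMTM6 to STUB1 was 0.505, 0.493 and 0.340 in PD-L1 dishes and 0.356, 0.417 and 0.479 in Vector dishes, with overlap (permutation p = 0.7).

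Genes that act with these 7 were described from 10 lists by role. Of 101 tested genes over the lists, 1 was called higher and 11 lower at an edgeR FDR under 0.05, with a median log2 fold change of -0.03, where 1.55% and 7.20% of all tested genes were called. The 12 calls became 5 without Vector dish 1, 7 without PD-L1 dish 1 and 29 without PD-L1 dish 3. Of 15 tested genes for PD-L1 transcription, 1 was higher and 2 were lower (median -0.04). IFNGR1, a chain of the interferon gamma receptor, was 53.2 ± 0.797 CPM in Vector dishes and 63.7 ± 0.377 in PD-L1 dishes (SD, n = 3; log2 fold change 0.26, edgeR FDR 0.0400). Its call ended in 10 of 19 alternatives, among them those without PD-L1 dish 1 or 2 or without any 1 of the Vector dishes (edgeR FDR up to 0.154). HIF1A, the hypoxia factor, fell from 188 ± 11.2 to 141 ± 5.14 CPM (log2 fold change -0.41, edgeR FDR 0.00376). JAK2 was 7.72 ± 0.939 and 7.71 ± 0.261 CPM in PD-L1 and Vector dishes.

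Of 13 tested genes for PD-L1 sorting, release and shedding, 0 were higher and 5 lower (median -0.09), where 1.55% and 7.20% of all tested genes were. ANXA2, a membrane-binding annexin, had a log2 fold change of -0.80 (edgeR FDR 7.92e-04), LAMP1, a lysosomal membrane protein, -0.36 (0.00734) and RAB27A, a GTPase of exosome release, -0.41 (0.0136). HGS, an ESCRT protein that sorts cargo into endosomal vesicles, had -0.38 (edgeR FDR 0.0192) and ADAM10, a sheddase of PD-L1, -0.30 (0.0495). ANXA2 and LAMP1 were called in all 19 alternatives. The call of RAB27A ended without PD-L1 dish 2 or Vector dish 1 (edgeR FDR 0.0784 and 0.0838). That of HGS ended when any of PD-L1 dishes 1 and 2 and Vector dishes 1 and 2 was left out (edgeR FDR 0.0562 to 0.110), and that of ADAM10 when PD-L1 dish 1 or any Vector dish was (0.1004 to 0.176). ADAM10 was called in 10 of 19 alternatives, and its call also ended with RLE, upper-quartile and total count scaling (edgeR FDR 0.0535, 0.0710 and 0.138) and with a mean of at least 5 CPM (0.0651).

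Of 8 tested partners of HIP1R in clathrin coats, 0 were higher and 3 lower (median -0.14), where 1.55% and 7.20% of all tested genes were. The adaptor subunit AP2M1 stood at 527, 545 and 622 CPM in PD-L1 dishes and at 839, 787 and 732 CPM in Vector dishes. Its log2 fold change was -0.48 ± 0.09 (SE, 3 dishes a group; edgeR FDR 0.00409), called in all 19 alternatives. AP2A1, another subunit, had -0.42 (edgeR FDR 0.0103) and the coat protein EPN1 -0.49 (0.0115). The call of AP2A1 ended without PD-L1 dish 1 or Vector dish 1 (edgeR FDR 0.0614 and 0.0716), and that of EPN1 without Vector dish 1 (0.0812) or under the offset for GC content and length (0.286). Without PD-L1 dish 3, 5 of the 8 were called lower, where 13.8% of all tested genes were. HIP1R itself was not called, and the difference between HIP1R and its partners was not tested.

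The list of ubiquitin ligases and kinases that mark PD-L1 also held partners and regulators of such enzymes. Of its 16 tested genes, 0 were higher and 1 lower (median 0.01), where 1.55% and 7.20% of all tested genes were. The lower gene was CCND1, cyclin D1, a partner of the kinase CDK4 and itself neither a ligase nor a kinase. It fell from 181 ± 11.8 to 103 ± 15.2 CPM (log2 fold change -0.81, edgeR FDR 2.65e-04). Without PD-L1 dish 3, 3 of the 16 were called higher and 3 lower, where 7.81% of all tested genes were called higher and 13.8% lower. Among 8 tested deubiquitinases, 0 were called by edgeR, DESeq2, limma-voom or limma on normalized counts, and 0 had an unadjusted p under 0.05 (median 0.02). USP22 was 321 ± 20.7 and 329 ± 15.5 CPM in PD-L1 and Vector dishes. USP9X was 317 ± 45.7 and 282 ± 20.6 CPM, with a log2 fold change of 0.17 (edgeR FDR 0.334), and 0.28 without PD-L1 dish 3 (FDR 0.00569). Among 9 tested genes for PD-L1 maturation and glycosylation, the same 4 tools called 0 and 2 had an unadjusted p under 0.05 (median -0.06). There the oligosaccharyltransferase subunit STT3A had a log2 fold change of -0.16 (edgeR FDR 0.179).

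Among 5 further tested CMTM genes, those 4 tools called 0 and 1 had an unadjusted p under 0.05 (median -0.01). CMTM7, the gene that overlaps CMTM6, was 32.6 ± 3.35 and 38.3 ± 1.44 CPM in PD-L1 and Vector dishes (SD, n = 3), with a log2 fold change of -0.23 (edgeR FDR 0.141), and -0.32 without PD-L1 dish 3 (FDR 0.00891). CMTM3 had -0.12 (edgeR FDR 0.520), and -0.25 without PD-L1 dish 3 (FDR 0.0318). Among 13 tested chaperones and conjugating enzymes of STUB1, the 4 tools called 0 and 1 had an unadjusted p under 0.05 (median 8.04e-05). HSP90AA1 had a log2 fold change of -0.13 and HSP90AB1 -0.18 (edgeR FDR 0.430 and 0.199), the latter -0.22 without PD-L1 dish 3 (FDR 0.0169). Of the other binding partners of the PD-1 ligands, PDCD1 and CD80 had too few counts to be tested. RGMB, a binding partner of PD-L2, was 20.0 ± 1.67 and 21.6 ± 0.554 CPM in PD-L1 and Vector dishes (log2 fold change -0.11, edgeR FDR 0.512). Without PD-L1 dish 3, calls appeared in each of the lists that had none except the binding partners: 1 lower for maturation, 1 higher and 2 lower among deubiquitinases, 2 lower in the CMTM family, 2 lower among chaperones and conjugating enzymes, and 1 higher and 1 lower in 9p24.1. That fit called 21.6% of all tested genes, so these counts are no result about the lists.

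No change was detected in the genes on either side of the PD-1 ligands. Of 14 tested genes in 9p24.1, 0 were called by edgeR, DESeq2, limma-voom or limma on normalized counts, and 1 had an unadjusted p under 0.05 (median -0.00133). PLGRKT, the neighbour before CD274, stood at 17.3, 18.4 and 20.5 CPM in PD-L1 dishes and at 18.1, 18.7 and 18.2 CPM in Vector dishes. RIC1, the neighbour after PDCD1LG2, stood at 27.4, 29.02 and 23.6 CPM against 25.8, 21.9 and 29.02 CPM. Both overlapped between groups, with log2 fold changes of 0.03 ± 0.10 and 0.06 ± 0.11 (SE, 3 dishes a group; edgeR FDR 0.896 and 0.788).

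**Figure D4:**
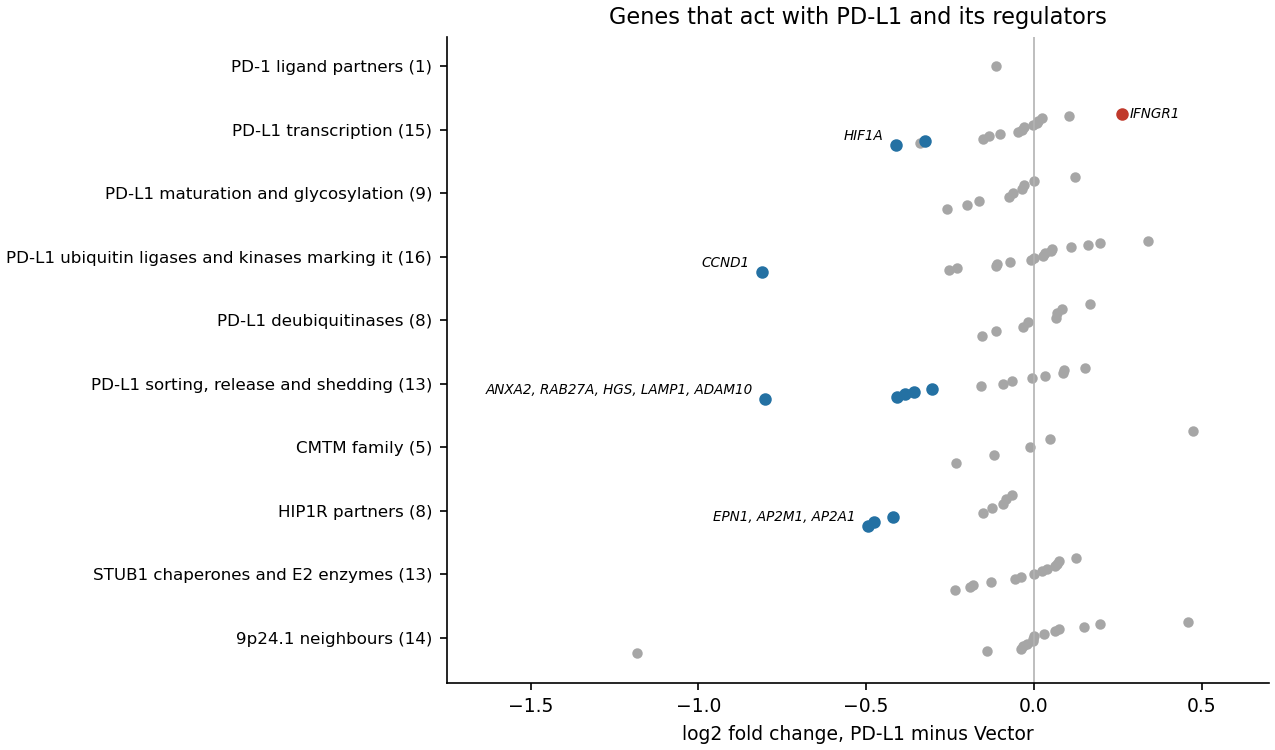
Log2 fold change, PD-L1 minus Vector, of 101 tested genes in 10 lists by role or, for 9p24.1, by position (number tested in brackets). There is 1 point per gene and list, with genes called at an edgeR FDR under 0.05 in colour and all but 1 of them named. The sorting list has 5 lower genes and the HIP1R partners 3, and the 9p24.1 neighbours have none called.

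Likeness over the 6 dishes was measured as Pearson's r of log2 CPM among genes with a mean of at least 5 CPM. For CD274 the highest r were those of IFNGR1 (0.998), ID2 (0.997) and CA5BP1 (0.997), and 344 of 11394 genes had an r over 0.9. These values rest on the difference between the groups. For PDCD1LG2 HADHA (0.988) and PTDSS1 (0.982) were among the highest, with 29 of 11395 genes over 0.9 and few counts behind each PDCD1LG2 value. For CMTM6 they were TTC14 (0.999), TOP2B (0.996) and COX15 (0.996), with 653 of 11394 genes over 0.9. The points share depth, scaling and GC content by dish.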

How the data were processed

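RNA of 6 dishes was measured, with groups and replicate numbers taken from the sample titles. Per the labels' protocols, libraries were made from 3 µg of RNA with poly-T beads and the NEBNext Ultra kit, which keeps no strand. Per the submitters' processing notes, CASAVA 1.8, STAR 2.5.1b, HTSeq 0.6.0 and hg19 were used. Which gene annotation, strand setting and filters went into counting is not given in the sources used here. Deposited are raw counts by Ensembl gene and, separately, normalized counts (unit signal), which equal the counts divided by 1 factor per dish.

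Raw counts were fitted in R 4.3.3 with edgeR 4.0.16 (filterByExpr, TMM, robust glmQLFit and glmQLFTest, no covariates) over all tested genes, and a Benjamini-Hochberg FDR under 0.05 was called. Alternatives used other scalings and filters, DESeq2 1.42.0, limma 3.58.1 (voom, or log2 of normalized counts plus 1), a replicate block, 1 dish left out and GC and length offsets. Lengths, GC content, overlaps and gene order came from GENCODE 29, which is on another build than the counts, and promoters from RefSeq GRCh38.p14.

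Members and lists were chosen with earlier results of these data known. Named were all 7 genes, up to 5 called genes per list by FDR (where none was called, the 2 most abundant), the direct neighbours, JAK2, and the 3 genes most like CD274, PDCD1LG2 and CMTM6; some genes this rule picks are not reported here. Symbols without an ID in the table, PPAPDC2 and PECAM1, were left out. Depth was 15678989 to 22270509 counts per dish, and the common biological coefficient of variation was 8.6%. Counting error was 1.93% to 2.79% for the 5 regulators, below their spread between dishes, and larger for PDCD1LG2 and for CD274 in Vector dishes.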

Additional observations from a re-analysis of the deposited data

How the results depend on the processing

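CD274 was called in all 19 alternatives (log2 fold change 8.82 to 9.44), and SPOP in 0. Of the 7 genes, 1 was called with all dishes, 1 to 2 with 1 dish left out, 3 with the GC and length offset and 4 with that offset without PD-L1 dish 3. With the offset and a replicate block 1 was called, CD274. Over all tested genes, 1384 were called (245 higher, 1139 lower), 545 to 3512 with 1 dish left out (545 when it was Vector dish 1, and 641, 745 and 3512 when it was PD-L1 dish 1, 2 and 3), 2317 with the offset (952 higher, 1365 lower) and 3597 with the offset without PD-L1 dish 3 (1671 higher, 1926 lower). Total count scaling split the calls into 401 higher and 932 lower. Of the related genes, 12 were called, 5 to 29 with 1 dish left out and 24 with the offset without PD-L1 dish 3. With 1 dish left out, the log2 fold change of CMTM6 ran from 0.0655 to 0.202 and that of STUB1 from -0.0669 to 0.108. With the offset HIP1R was 0.24 and STUB1 0.16; without PD-L1 dish 3 as well, CMTM4 was 0.16, HIP1R 0.25 and STUB1 0.15. By coding length of both genes the CD274 to CMTM6 ratio was 5.68 in PD-L1 and 0.0114 in Vector dishes.

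Signs turned only for genes called in none of the fits concerned, STUB1 without PD-L1 dish 3 or Vector dish 3 included. USP22 was 0.0237 with total count scaling, 0.0542 with the offset, 0.0533 with the offset and replicate block, and 0.0996 with the offset without PD-L1 dish 3. AK3 was 0.0303, 0.0540 and 0.00510, and JAK2 0.0308, 0.0547 and 0.00579, with upper-quartile scaling, total count scaling and a mean of at least 5 CPM. RANBP6 was 0.0133 and 0.0349 with the first 2 of these. PLGRKT was -0.11 with the offset, -0.11 with the offset and replicate block, and -0.18 with the offset without PD-L1 dish 3. With 1 dish left out, USP22 ran from -0.0715 to 0.0174, AK3 from -0.0404 to 0.0456, RANBP6 from -0.101 to 0.0314, PLGRKT from -0.0426 to 0.0838, RIC1 from -0.0394 to 0.149 and JAK2 from -0.0923 to 0.0690. The cause of these changes was not tested.

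The replicate numbers did not pair the dishes: deviations of same-numbered dishes correlated at -0.212, -0.0512 and -0.192, and no dish correlated best with its own number. With a replicate block, 1447 genes were called and CD274 was 9.09, CMTM6 0.13, CMTM4 0.08, HIP1R 0.06, STUB1 0.04, SPOP 0.14 and PDCD1LG2 -0.42, with CD274 the 1 call among them; the edgeR FDR of ADAM10 was 0.0593 and that of IFNGR1 0.169. Depth limits PDCD1LG2, at 8 to 23 counts per dish.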
